A study of Drosophila melanogaster with 9 samples.

Results

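Cytochrome P450 enzymes (CYPs) are haem proteins that add an oxygen atom to their substrates. Insects use them to make and inactivate hormones, to process fatty acids and cuticular lipids, and to modify plant toxins and insecticides, and the fat body is one of the organs in which many of them are expressed. Those of the CYP2, CYP3 and CYP4 clans sit in the endoplasmic reticulum and take electrons from P450 reductase, while those of the mitochondrial clan take them from a ferredoxin. The genes described here are those of Drosophila melanogaster whose BDGP6 symbol has the form of a P450 family, subfamily and number, with Cyp18a1 left out, that reached a value of 1 in no fewer than 3 libraries. They number 68 of the 10242 genes in the deposited tables. All 68 passed the value filter, and 16 further annotated symbols of this form were not analysed here. The clans, read from the family number in the symbol, hold 2 genes (CYP2), 33 genes (CYP3), 24 genes (CYP4) and 9 genes (mitochondrial).

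Poly(A) RNA of dissected fat bodies was sequenced in 9 libraries, each from 5 pooled animals, with 3 libraries in each of 3 groups. The larvae were in the third instar (titled e3IL) and of the genotype UAS-LacZ/+; Lsp2-GAL4/+, in which the GAL4 driver of the storage protein gene Lsp2 expresses beta-galactosidase in the fat body. The other groups were white prepupae, the brief stage that begins puparium formation, and are named here by their titles, mitf or LacZ. The genotype label gives UAS-Mitf/+; Lsp2-GAL4/+ to both prepupa groups, and the tables' own column names swap LacZ and mitf relative to the titles. Mitf is the Drosophila homologue of the vertebrate transcription factors MITF and TFEB, and its transcript averaged 391 ± 17.1 in larvae, 375 ± 30.3 in the mitf-titled prepupae and 49795 ± 17048 in the LacZ-titled prepupae. The labels conflict on which prepupae carried the Mitf transgene, so every direction below is given by title. By transcript level, the group high in Mitf is the one titled LacZ. It differs from the larvae in both stage and Mitf level. Animals developed at 21 °C for their first 21 h and at 25 °C thereafter.

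Values are the authors' normalised read values, written as mean ± SD over 3 libraries where not given singly. The values of a library summed to between 17195800 and 27178600, and the smallest step between low values was 0.747 to 1.386, so a value of a few units rests on a few reads. Log2 differences ± SE are on the log2(value + 1) scale, from 1 limma fit of all 9 libraries over 10139 genes, and a gene was called at a Benjamini-Hochberg adjusted p under 0.05. The 10 fat body markers summed to 7434150 to 12472600 in the larvae, 10356800 to 10687200 in the prepupae titled mitf and 1141340 to 1592140 in the prepupae titled LacZ, with none at 0. Of 16 Malpighian tubule markers, 14 were measured, and their sum was 4558 to 5674 in the larvae, 5143 to 5659 in the prepupae titled mitf and 46797 to 49668 in the prepupae titled LacZ. Of those 14, 9 were higher and 1 was lower in the prepupae titled LacZ than in those titled mitf, CapaR was listed at 0 in every library titled mitf, and Uro was not among those measured. The sums of 18 gut markers were 104 to 131, 63.7 to 99.6 and 854 to 1984 in that order of groups, and 6 of the 18 were at 0 in all libraries titled mitf. In the same order, 11 muscle markers summed to 2949 to 3424, 866 to 1118 and 5986 to 7319. Measured epidermal markers (5) summed to 1.28 to 88.3, 55.3 to 219 and 313 to 423, and ring gland markers (3) to 460 to 1223, 1634 to 1949 and 1878 to 2800. Hemocyte markers (10) went the other way, at 1538 to 3027, 4961 to 6242 and 2162 to 3357. The sums of muscle and gut markers did not follow most single genes in the comparison with larvae. Of the 11 muscle markers, 2 rose and 6 fell from larvae to the prepupae titled LacZ (median log2 difference -1.68). Between the prepupa groups, 6 muscle markers were higher and 0 lower in those titled LacZ. Of the 18 gut markers, 7 rose and 6 fell from larvae to the prepupae titled LacZ (median -0.42), and 10 were higher and 1 lower there than in those titled mitf. Of all genes, 46.3% rose and 32.2% fell from larvae to the prepupae titled LacZ. Between the prepupa groups, 41.1% of all genes were higher and 31.6% lower in those titled LacZ. In bulk tissue, fewer cells of a type and less RNA per cell cannot be told apart. The part of other tissues in the P450 differences was not tested.

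P450 genes were called in each comparison at rates near those of all genes, with changes in both directions. Between the prepupa groups, 32 were higher and 22 lower in the libraries titled LacZ and 14 were not called. That is 79.4% called against 72.7% of all tested genes, of which 41.1% were higher and 31.6% lower. From larvae to the prepupae titled mitf, 22 rose and 30 fell, or 76.5% called against 66.4% of all genes, of which 34.8% rose and 31.7% fell. From larvae to the prepupae titled LacZ, 33 rose and 22 fell, or 80.9% called against 78.5% of all genes, of which 46.3% rose and 32.2% fell. The median log2 difference of the 68 genes was 0.62 between the prepupa groups, against 0.22 over all genes. It was -0.37 and 0.62 from larvae to the prepupae titled mitf and titled LacZ, against 0.08 and 0.50. The 3 libraries of one group did not overlap with those of the other for 53, 48 and 52 of the 68 genes in the same order of comparisons, against 76.1%, 71.1% and 79.9% of all genes. The comparisons share libraries, so their counts are not independent of each other. The genes counted as higher in the prepupae titled LacZ, against either other group, include Cyp4g15, Cyp4ae1, Cyp28c1, Cyp12d1-d and Cyp49a1. These passed the value filter only through the libraries titled LacZ, where they are high.

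**Figure D1:**
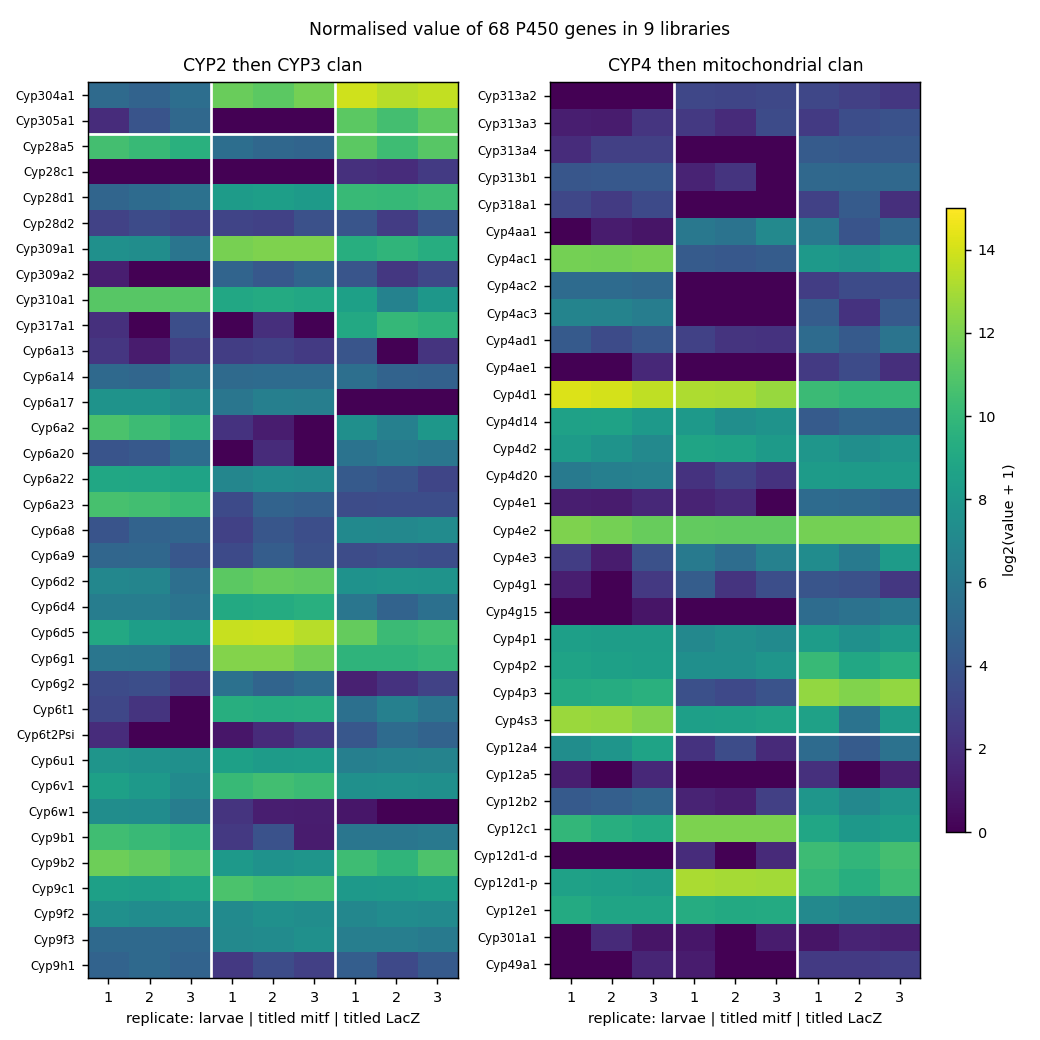
Normalised value of each of the 68 P450 genes as log2(value + 1), colour scale from 0 to 15, in the 9 libraries (columns, replicates 1 to 3 of larvae, prepupae titled mitf and prepupae titled LacZ, divided by white vertical lines; white horizontal lines divide the clans). Rows are to be read across, since values are not corrected for gene length; replicates of a group look alike in most rows, and the brightest rows differ between the groups, with Cyp4d1 brightest in larvae and Cyp304a1 in prepupae titled LacZ.

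The summed P450 value was 45856 ± 8213 in the larvae, 58414 ± 3637 in the prepupae titled mitf and 41465 ± 6268 in the prepupae titled LacZ. The larval and titled LacZ ranges overlapped (37088 to 53371 and 34388 to 46313), and the lowest library titled mitf stood at 54218. The clans that made up this total differed far more than the total did. Divided by the length of the longest annotated transcript, the CYP4 clan held 68.6% ± 0.836 of the summed P450 value per kb in the larvae, 23.4% ± 1.41 in the prepupae titled mitf and 31.9% ± 1.34 in the prepupae titled LacZ. The CYP3 clan held 27.6% ± 1.01, 55.7% ± 1.74 and 25.0% ± 0.10 in the same order. The mitochondrial clan held 3.70% ± 0.546, 14.9% ± 0.710 and 5.54% ± 0.561, and the CYP2 clan 0.122% ± 0.0706, 6.04% ± 1.67 and 37.6% ± 1.57. The length used was 4.482 kb for Cyp12d1-p and 1.812 kb for its tandem copy Cyp12d1-d. The clan shares, the mitochondrial one above all, and the rank of Cyp12d1-p per kb therefore depend on that choice of transcript. Within a library these shares do not depend on how libraries were scaled.

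**Figure D2:**
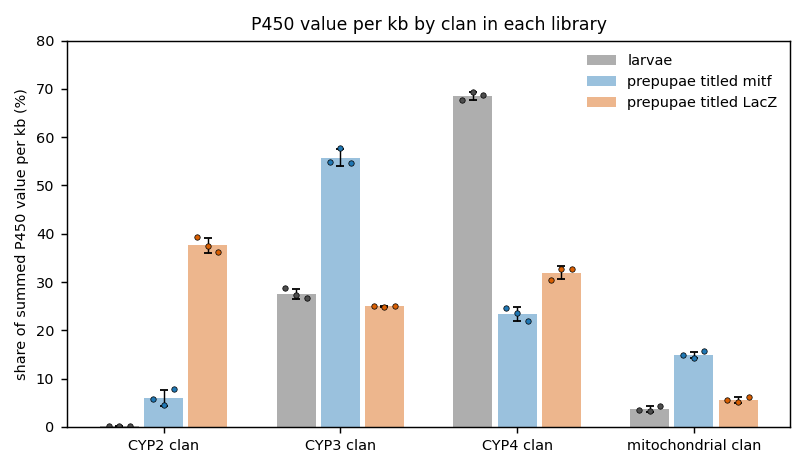
Share of the summed P450 value per kb (percent, y axis) held by each clan (x axis) in larvae, prepupae titled mitf and prepupae titled LacZ; bars are means, error bars SD and points the 3 libraries. CYP4 leads in larvae (68.6%), CYP3 in prepupae titled mitf (55.7%) and CYP2 in prepupae titled LacZ (37.6%).

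A different gene led each group in value per kb. Cyp4d1 led the larvae at 9507 ± 2171 per kb, which was 37.1% of the P450 sum per kb, followed by Cyp4s3, Cyp4ac1, Cyp4e2 and Cyp9b2, each with an SD overlapping that of the next. Cyp6d5 led the prepupae titled mitf at 7751 ± 1112 per kb (26.0%), followed by Cyp4d1, Cyp12c1, Cyp309a1 and Cyp6g1, of which the last 3 had overlapping SDs. Cyp304a1 led the prepupae titled LacZ at 7507 ± 1292 per kb (32.5%), followed by Cyp4p3, Cyp4e2, Cyp305a1 and Cyp28a5, of which the last 2 had overlapping SDs. The first 5 genes held 69.7%, 63.7% and 65.6% of the sum per kb in the larvae, the prepupae titled mitf and those titled LacZ. A mean of at least 1000 was reached by 10, 11 and 10 genes in that order of groups, and 22, 29 and 14 genes had a mean under 10. Of these, 3, 9 and 1 were listed at 0 in all 3 libraries of the group.

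**Figure D3:**
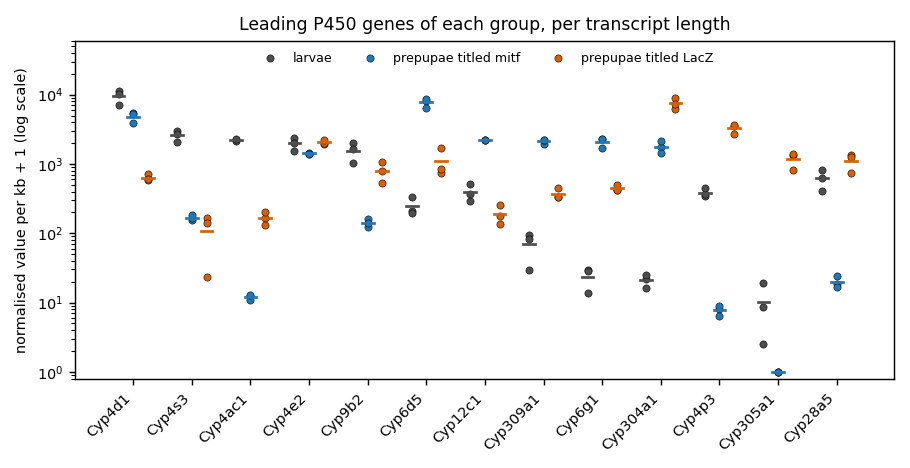
Normalised value per kb of transcript plus 1 (log scale, y axis) of the 13 genes that are among the first 5 of a group, with the 3 libraries of each group as points and a bar at the group mean. Cyp4ac1 averages 2243 per kb in larvae and 11.1 in prepupae titled mitf, and Cyp305a1 is at the lower edge, a value of 0, in all prepupae titled mitf.

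The CYP4 clan was the clan with the highest share in larvae, and 12 of its 24 genes were called lower in the prepupae titled mitf than in both other groups. That was so for 16.3% of all tested genes. From larvae to the prepupae titled mitf, 5 of the 24 CYP4 genes rose and 15 fell (median log2 difference -0.95). Of all genes, 34.8% rose and 31.7% fell. In the prepupae titled LacZ, 15 were higher and 3 lower than in those titled mitf (median 2.28), against 41.1% and 31.6% of all genes. From larvae to the prepupae titled LacZ, 13 had risen and 6 fallen (median 1.08), against 46.3% and 32.2% of all genes. Both the 15 and the 13 include Cyp4g15 and Cyp4ae1, which passed the value filter only through the libraries titled LacZ.

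Cyp4d1 (FBgn0005670, arm X, 2159145 to 2162180, minus strand) stood at 19101, 16982 and 11976 among larvae, 9125, 8724 and 6497 among the mitf-titled prepupae and 1185, 978 and 1029 among the LacZ-titled prepupae. The 3 groups did not overlap, with larvae highest and the prepupae titled LacZ lowest. Its mean was 1.97-fold lower in the mitf-titled prepupae (log2 difference -0.97 ± 0.19, adjusted p = 0.00112) and 15.1-fold lower in the LacZ-titled ones (-3.89 ± 0.19, adjusted p = 3.39e-08). The difference between the prepupa groups was -2.92 ± 0.19, adjusted p = 3.61e-07.

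Cyp4s3 (FBgn0030615, arm X, 15113302 to 15116542, minus strand) stood at 6752, 6243 and 4773 among larvae, 356, 372 and 413 among the mitf-titled prepupae and 376, 51.2 and 314 among the LacZ-titled prepupae. Both prepupa groups lay far below the larvae and overlapped each other, and the second library titled LacZ was the lowest of all 9. The log2 difference from larvae was -3.94 ± 0.61, adjusted p = 0.000237 in the prepupae titled mitf and -5.00 ± 0.61, adjusted p = 3.24e-05 in those titled LacZ. The prepupa groups were not called apart (-1.05 ± 0.61, adjusted p = 0.145).

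The neighbouring genes Cyp4ac1, Cyp4ac2 and Cyp4ac3 lie on arm 2L between 5264001 and 5270329. Cyp4ac1 stood at 3722, 3616 and 3874 among larvae, 19.2, 16.6 and 19.5 among the mitf-titled prepupae and 279, 215 and 340.2 among the LacZ-titled prepupae. Its 3 groups were widely apart, and the prepupae titled mitf were the lowest, 203-fold below the larvae. The log2 difference was -7.59 ± 0.16, adjusted p = 6.79e-10 from larvae to the prepupae titled mitf, -3.77 ± 0.16, adjusted p = 1.49e-08 to those titled LacZ and 3.82 ± 0.16, adjusted p = 1.99e-08 between the prepupa groups. Cyp4ac3 had the same order at a lower level, with 107, 102 and 80.2 in the larvae, 0 in every library titled mitf and 20, 3.54 and 17.2 in those titled LacZ. Cyp4ac2, too, was listed at 0 in every library titled mitf, and averaged 35.9 ± 2.74 in larvae and 8.34 ± 2.38 in the prepupae titled LacZ. All 3 were called in all 3 comparisons, in the same directions.

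Cyp4p3 (FBgn0033397, arm 2R, 9242320 to 9244410, plus strand) had the largest called difference between the prepupa groups among genes above 0 in every library. It stood at 569, 614 and 743 among larvae, 11.9, 8.94 and 13.4 among the mitf-titled prepupae and 5954, 4519 and 6029 among the LacZ-titled prepupae. The groups did not overlap, and its mean was 483-fold higher in the prepupae titled LacZ than in those titled mitf (log2 difference 8.80 ± 0.18, adjusted p = 2.58e-10). It fell from larvae to the prepupae titled mitf (-5.70 ± 0.18, adjusted p = 3.44e-09) and rose to those titled LacZ (3.09 ± 0.18, adjusted p = 1.14e-07). Its neighbours Cyp4p1 and Cyp4p2 were also called lower in the prepupae titled mitf than in both other groups, by smaller differences. Cyp4p1 averaged 332, 144 and 260.4 and Cyp4p2 372, 194 and 773 in larvae, prepupae titled mitf and prepupae titled LacZ.

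Cyp4e2 (FBgn0014469, arm 2R, 8444560 to 8447164, plus strand) was the CYP4 gene that varied least among the highly expressed ones. It stood at 4459.9, 3785 and 2908 among larvae, 2744, 2614 and 2619 among the mitf-titled prepupae and 3688, 3738 and 4099 among the LacZ-titled prepupae. The prepupae titled mitf were below every other library, and larvae and prepupae titled LacZ overlapped. The differences called were -0.46 ± 0.14, adjusted p = 0.0145 from larvae to the prepupae titled mitf and 0.53 ± 0.14, adjusted p = 0.00653 between the prepupa groups. The first was lost without larval replicate 1 (-0.32) and the second with trimmed mean scaling (0.35). From larvae to the prepupae titled LacZ the difference was 0.07 ± 0.14, adjusted p = 0.67, not called here but called with equal library totals (0.56) and below 0 with trimmed mean scaling (-0.19).

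Cyp4aa1 and Cyp4g15 were near 0 in larvae. Cyp4aa1 stood at 0, 1.25 and 0.777 among larvae, 62.1, 52.3 and 134 among the mitf-titled prepupae and 62.2, 14.1 and 29.9 among the LacZ-titled prepupae, so that both prepupa groups lay above the larvae and overlapped each other. It rose to both prepupa groups (5.60 ± 0.57 titled mitf, 4.28 ± 0.57 titled LacZ). Cyp4g15 was at 37.7, 49.1 and 71.6 among the LacZ-titled prepupae, at 0 in every library titled mitf and at 0, 0 and 0.782 in the larvae. It reached a value of 1 in the libraries titled LacZ alone, and so passed the value filter through the group where it is high. No test of it is printed, but it is among the called genes in the counts and in the figure of differences between the prepupa groups. Its paralogue Cyp4g1, which makes cuticular hydrocarbons and is the defining P450 of oenocytes, averaged 2.02, 11.6 and 10.4 in larvae, prepupae titled mitf and prepupae titled LacZ. The libraries of the groups overlapped, and the called rises of Cyp4g1 from larvae to each prepupa group were each lost without any of 4 single libraries. Of 11 oenocyte markers 7 were measured, Cyp4g1 and the P450 reductase gene Cpr among them, and their sum was 17525 to 18343 in the larvae, 5921 to 6266 in the prepupae titled mitf and 3522 to 4046 in those titled LacZ. The markers did not move together. CG6660 and FarO were at 0 in every larval library, whereas FASN2, spidey and svp averaged 3653, 2693 and 3096 in larvae.

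The remaining CYP4 genes were lower in level. Cyp4d20 averaged 86.3, 4.56 and 297 in larvae, prepupae titled mitf and prepupae titled LacZ, and was called in all 3 comparisons. Cyp4d14 averaged 355, 213 and 25 and was lowest in the prepupae titled LacZ. Cyp4d2 averaged 213, 373 and 209, and its higher level in the prepupae titled mitf was not called without some single libraries. Antisense RNA genes cover over 90% of the exon bases of Cyp4d14 and Cyp4d2 on the opposite strand, and whether the authors' counting used strand is not given in the sources used here. Cyp4e3 averaged 6.41, 67.2 and 174 and rose to both prepupa groups, while Cyp4e1 averaged 1.66, 1.46 and 32.6 and Cyp4ad1 14.5, 4.63 and 36.3, both higher in the prepupae titled LacZ than in those titled mitf. The 4 Cyp313 genes had group means from 0 to 31.9. Cyp313a2 was at 0 in all larvae, at 8.22, 7.66 and 8.51 among the mitf-titled prepupae and at 7.97, 6.18 and 4.47 among the LacZ-titled ones. Cyp313a4 and Cyp318a1 were at 0 in all libraries titled mitf, with means of 5.08 ± 2 and 7.55 ± 2.27 in larvae. Cyp313b1 averaged 16, 1.9 and 31.9 and Cyp313a3 2.17, 5.62 and 9.36. Cyp4ae1 was at 0 in every library titled mitf and averaged 0.778 ± 1.35 in larvae and 5.83 ± 3.49 in the prepupae titled LacZ.

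The CYP3 clan, which in insects holds many of the enzymes tied to insecticide and plant toxin metabolism, was the leading clan in the prepupae titled mitf. Between the prepupa groups, 11 of its 33 genes were higher and 16 lower in those titled LacZ (median log2 difference -0.70). Of all genes, 41.1% were higher and 31.6% lower. From larvae to the prepupae titled mitf, 13 rose and 12 fell, with a median of 0.00, against 34.8% and 31.7% of all genes. To the prepupae titled LacZ, 14 rose and 13 fell (median -0.26), against 46.3% and 32.2% of all genes. With library totals made equal, 14 rose and 8 fell (median 0.22). With trimmed mean scaling 12 rose and 15 fell. Cyp28c1, counted as higher in the prepupae titled LacZ than in either other group, passed the value filter only through those libraries. Of the 15 P450 genes called higher in the prepupae titled mitf than in both other groups, 12 were of this clan, which holds 33 of the 68 genes. Of all tested genes, 16.5% had that order.

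The genes of the Cyp6d subfamily shared that order. Cyp6d5 (FBgn0038194, arm 3R, 14029228 to 14031483, plus strand), which in adult flies is induced by caffeine, stood at 539, 340.2 and 319 among larvae, 13454, 14047 and 10635 among the mitf-titled prepupae and 2767, 1216 and 1388 among the LacZ-titled prepupae. The 3 groups did not overlap and the prepupae titled mitf were the highest, 31.8-fold above the larvae. It rose to the mitf-titled prepupae (log2 difference 5.02 ± 0.30, adjusted p = 2.88e-07) and to those titled LacZ (2.10 ± 0.30, adjusted p = 0.000115), and the prepupa groups differed by -2.92 ± 0.30, adjusted p = 1.25e-05. Cyp6d2 stood at 123, 111 and 43.5 among larvae, 2401, 2861 and 2600.3 among the mitf-titled prepupae and 195, 213 and 208 among the LacZ-titled prepupae. Its rise to the prepupae titled mitf was 4.94 ± 0.32, adjusted p = 4.86e-07, and to those titled LacZ 1.28 ± 0.32, adjusted p = 0.00456, which was 0.81 without larval replicate 3, at 43.5 the lowest library. The gene nsr covers 51.0% of its exon bases on the opposite strand. Cyp6d4 stood at 80.3, 81 and 54.4 among larvae, 554, 594 and 717 among the mitf-titled prepupae and 58.2, 26.5 and 44.8 among the LacZ-titled prepupae, with the prepupae titled mitf far above the rest (3.11 ± 0.28, adjusted p = 5.13e-06 from larvae, and -3.88 ± 0.28 between the prepupa groups). Its fall from larvae to the prepupae titled LacZ (-0.77 ± 0.28, adjusted p = 0.0293) was not called with equal library totals (-0.29), in the 6 libraries alone, or without larval replicate 1 or 2 or titled LacZ replicate 2 (-0.46).

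Cyp6g1, the enzyme whose overexpression gives resistance to DDT, was low in larvae and high in both prepupa groups (FBgn0025454, arm 2R, 12185667 to 12188431, plus strand). It stood at 58.2, 56.1 and 26.4 among larvae, 4686, 4773 and 3508 among the mitf-titled prepupae and 861, 880.4 and 1037 among the LacZ-titled prepupae. No groups overlapped. Its mean was 92.2-fold higher in the prepupae titled mitf than in larvae (log2 difference 6.56 ± 0.27, adjusted p = 2.16e-08) and 19.7-fold higher in those titled LacZ (4.35 ± 0.27, adjusted p = 2.07e-07). The prepupa groups differed by -2.21 ± 0.27, adjusted p = 4.08e-05. Its neighbour Cyp6g2, which overlaps its end by 94 exon bases, averaged 8.79, 37.5 and 3.95 in larvae, prepupae titled mitf and prepupae titled LacZ.

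Cyp309a1 (FBgn0031432, arm 2L, 2562483 to 2564830, minus strand) had the same order of groups. It stood at 186, 165 and 56.3 among larvae, 3840.5, 4405 and 4402 among the mitf-titled prepupae and 666, 895 and 654 among the LacZ-titled prepupae, with no overlap between groups. The log2 difference from larvae was 5.12 ± 0.38, adjusted p = 1.1e-06 in the prepupae titled mitf and 2.60 ± 0.38, adjusted p = 0.000116 in those titled LacZ, and -2.52 ± 0.38, adjusted p = 0.000167 between the prepupa groups. Its neighbour Cyp309a2 had the same order at a lower level, with means of 0.461, 24 and 8.99, and its call between the prepupa groups was lost in 6 alternative settings. Cyp6t1 stood at 8.31, 3.74 and 0 among larvae, 678, 625 and 643 among the mitf-titled prepupae and 46.2, 90.9 and 53 among the LacZ-titled prepupae, again highest in the prepupae titled mitf (7.52 ± 0.67, adjusted p = 4.5e-06 from larvae). Its difference between the prepupa groups (-3.40 ± 0.67, adjusted p = 0.00114) missed the threshold with a pseudocount of 0.1.

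Cyp6v1 and Cyp9c1 were highest in the prepupae titled mitf, and the other groups lay close together. Cyp6v1 stood at 369, 276 and 146 among larvae, 1118, 1388 and 1185 among the mitf-titled prepupae and 185, 195 and 174 among the LacZ-titled prepupae. It was higher in the prepupae titled mitf than in larvae (2.31 ± 0.28, adjusted p = 4.07e-05) and lower again in those titled LacZ (-2.72 ± 0.28, adjusted p = 1.08e-05). Larvae and prepupae titled LacZ overlapped (-0.41 ± 0.28, adjusted p = 0.2, and 0.076 with equal library totals). Cyp9c1 stood at 366, 343 and 412 among larvae, 1702, 1381 and 1530.1 among the mitf-titled prepupae and 262, 283 and 323 among the LacZ-titled prepupae, with the prepupae titled mitf well above the rest (2.04 ± 0.12, adjusted p = 2.7e-07 from larvae, -2.40 ± 0.12 between the prepupa groups). Its small difference between larvae and the prepupae titled LacZ (-0.37 ± 0.12, adjusted p = 0.0192) turned to 0.12 with equal library totals and was not called without larval replicate 3 or titled LacZ replicate 1. An antisense RNA gene covers 98.2% of its exon bases. Cyp6u1 averaged 203, 329 and 95.8 in larvae, prepupae titled mitf and prepupae titled LacZ, and Cyp9f3 33.1, 156 and 79.6, both called highest in the prepupae titled mitf.

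A further set of CYP3 genes was high in larvae and fell to both prepupa groups. Cyp9b2 (FBgn0015039, arm 2R, 7130277 to 7132139, minus strand) stood at 3346, 2701 and 1699 among larvae, 266, 202 and 229 among the mitf-titled prepupae and 1296, 891 and 1776 among the LacZ-titled prepupae. Larvae and prepupae titled LacZ overlapped, and the prepupae titled mitf were the lowest. It fell to the prepupae titled mitf (-3.42 ± 0.28, adjusted p = 2.73e-06) and to those titled LacZ (-0.97 ± 0.28, adjusted p = 0.0104), and the second call was lost with equal library totals (-0.48). The adjacent Cyp9b1 stood at 1350.2, 1143 and 859 among larvae, 4.57, 12.8 and 1.22 among the mitf-titled prepupae and 57.4, 59.2 and 64.9 among the LacZ-titled prepupae, with no overlap between groups. Its fall to the prepupae titled mitf was -7.63 ± 0.53, adjusted p = 7.79e-07 and to those titled LacZ -4.16 ± 0.53, adjusted p = 4.75e-05, and the prepupa groups differed by 3.47 ± 0.53, adjusted p = 0.000207.

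Cyp6a2, an enzyme induced by phenobarbital and tied to insecticide metabolism (FBgn0000473, arm 2R, 6779749 to 6781491, minus strand), stood at 1718, 1222 and 820.3 among larvae, 3.66, 1.28 and 0 among the mitf-titled prepupae and 177, 92.8 and 243 among the LacZ-titled prepupae. The prepupae titled mitf were at or near 0, and the other groups did not overlap. The log2 difference was -9.09 ± 0.55, adjusted p = 2.95e-07 to the prepupae titled mitf, -2.91 ± 0.55, adjusted p = 0.000771 to those titled LacZ and 6.18 ± 0.55, adjusted p = 3.97e-06 between the prepupa groups. Cyp310a1 stood at 2243, 2164 and 2136 among larvae, 499, 579.8 and 516 among the mitf-titled prepupae and 372, 99.8 and 241 among the LacZ-titled prepupae. It fell from larvae to both prepupa groups (-2.04 ± 0.37, adjusted p = 0.000758 titled mitf, -3.39 ± 0.37, adjusted p = 1.51e-05 titled LacZ). The prepupa groups differed by -1.35 ± 0.37, adjusted p = 0.00822, and by -0.82 without titled LacZ replicate 2, at 99.8 the lowest library. Cyp6w1, which gives DDT resistance when overexpressed, stood at 160.0, 157 and 80.6 among larvae, 3.87, 1.38 and 1.31 among the mitf-titled prepupae and 0.859, 0 and 0 among the LacZ-titled prepupae. It fell to the prepupae titled mitf (-5.42 ± 0.45, adjusted p = 2.66e-06) and to those titled LacZ (-6.70 ± 0.45, adjusted p = 3.62e-07). Between the prepupa groups its values were at most 3.87, and that call (-1.28 ± 0.45, adjusted p = 0.0263) was lost in 5 alternative settings.

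Cyp28a5 and Cyp28d1 of the Cyp28 family were higher in the prepupae titled LacZ than in those titled mitf but differed in larvae. Cyp28a5 (FBgn0028940, arm 2L, 13977302 to 13979569, plus strand) stood at 1455, 1102 and 719.8 among larvae, 41.1, 30.6 and 28 among the mitf-titled prepupae and 2385, 1307 and 2199.6 among the LacZ-titled prepupae. The prepupae titled mitf were far below both other groups, which overlapped. The differences were -4.96 ± 0.29, adjusted p = 2.49e-07 from larvae to the prepupae titled mitf and 5.81 ± 0.29, adjusted p = 6.64e-08 between the prepupa groups. Its rise from larvae to the prepupae titled LacZ (0.86 ± 0.29, adjusted p = 0.0221) was lost with trimmed mean scaling (0.60), without larval replicate 3 (0.58) and without titled LacZ replicate 1 (0.69) or 3 (0.75). Cyp28d1, which takes part in nicotine metabolism, stood at 29.1, 37.4 and 48.2 among larvae, 305, 342 and 288 among the mitf-titled prepupae and 1105, 1078 and 1266 among the LacZ-titled prepupae. Its groups did not overlap, and it rose to the prepupae titled mitf (3.02 ± 0.18, adjusted p = 2.32e-07) and further to those titled LacZ (4.90 ± 0.18, adjusted p = 4.94e-09). Its neighbour Cyp28d2 averaged 7.96, 8.62 and 11.5 in larvae, prepupae titled mitf and prepupae titled LacZ and was not called in any comparison. Cyp28c1 was at 0 in all larvae and all prepupae titled mitf and at 3.28, 2.73 and 4.94 in those titled LacZ. Cyp28c1 and Cyp4g15 were the genes that reached a value of 1 in exactly 3 libraries, the fewest that the rule allows, and both did so in the prepupae titled LacZ alone.

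**Figure D4:**
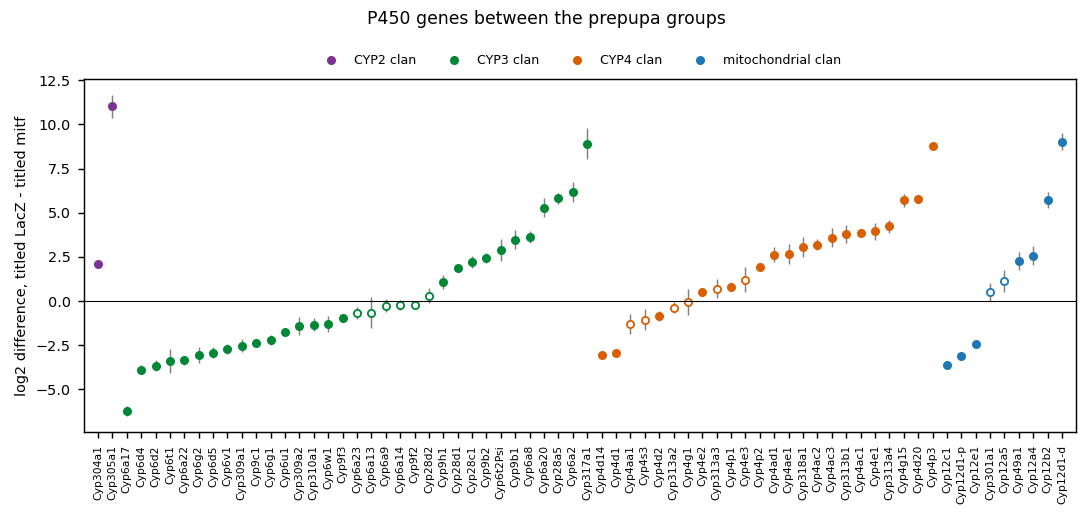
Log2 difference (prepupae titled LacZ minus prepupae titled mitf, y axis, on log2(value + 1), from limma) of the 68 P450 genes, ordered by size within each clan (x axis), with SE bars; filled points were called and open points were not. The genes run from Cyp6a17 at -6.25 to Cyp305a1 at 11.02, and CYP4 genes lie mostly above 0. The filled points include Cyp4g15, Cyp4ae1, Cyp28c1, Cyp12d1-d and Cyp49a1, which passed the value filter only through the libraries titled LacZ, where they are high.

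The Cyp6a genes between 14871366 and 14903095 on arm 2R, with Cyp317a1 at the end of the array, did not move as a block. Of the 9 measured Cyp6a genes, 6 of them in this array, none rose from larvae to the prepupae titled mitf, and 6 fell. To the prepupae titled LacZ, 2 rose and 5 fell. Over all genes, 34.8% rose and 31.7% fell to the prepupae titled mitf, and 46.3% and 32.2% to those titled LacZ. At the low-coordinate end of the array, Cyp6a22 stood at 495, 477 and 424 among larvae, 118, 155 and 142 among the mitf-titled prepupae and 17.6, 13.7 and 7.85 among the LacZ-titled prepupae. Its groups did not overlap, falling from larvae to the prepupae titled mitf (-1.75 ± 0.26, adjusted p = 0.000186) and to those titled LacZ (-5.11 ± 0.26, adjusted p = 4.98e-08). The adjacent Cyp6a17, which is needed for normal temperature preference, stood at 210.1, 208 and 132 among larvae and 58, 88.4 and 82.9 among the mitf-titled prepupae, and was listed at 0 in every library titled LacZ. The fall to the prepupae titled LacZ was called (-7.49 ± 0.28, adjusted p = 5.87e-09), as was the difference between the prepupa groups (-6.25 ± 0.28, adjusted p = 2.89e-08). Cyp6a23 stood at 1580.1, 1415 and 1096 among larvae, 9.14, 26.8 and 21.9 among the mitf-titled prepupae and 10.4, 10.6 and 10.4 among the LacZ-titled prepupae. It was high in larvae alone, with falls of -6.18 ± 0.34, adjusted p = 1.57e-07 to the prepupae titled mitf and -6.88 ± 0.34, adjusted p = 4.29e-08 to those titled LacZ. The prepupa groups overlapped in Cyp6a23 (-0.70 ± 0.34, adjusted p = 0.0922).

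At the other end of the array the prepupae titled LacZ were the highest group. Cyp6a8, a phenobarbital-inducible gene, averaged 22.9 ± 7.97 in larvae, 10.9 ± 4.46 in the prepupae titled mitf and 138 ± 12.7 in those titled LacZ. Cyp6a20, which affects male aggression, averaged 23.7 ± 14, 0.851 ± 1.47 and 59.1 ± 8.52. Both were highest in the prepupae titled LacZ, though for Cyp6a20 the call against larvae was lost in 7 alternative settings. Cyp6a9, between these genes and the first ones, averaged 25.7, 13.9 and 10.8. Cyp317a1 (FBgn0033982, arm 2R, 14898312 to 14903095, plus strand) stood at 3.3, 0 and 11.1 among larvae, 0, 3.04 and 0 among the mitf-titled prepupae and 533, 1032 and 825 among the LacZ-titled prepupae. It was at or near 0 outside the prepupae titled LacZ, which were higher than those titled mitf (8.92 ± 0.86, adjusted p = 6.9e-06) and than larvae (7.69 ± 0.86, adjusted p = 1.73e-05). The gene Kank covers 32.6% of its exon bases on the opposite strand. The Cyp6a13 and Cyp6a14 genes elsewhere on the arm had group means from 3.87 to 38.4 and were not called in any comparison.

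**Figure D5:**
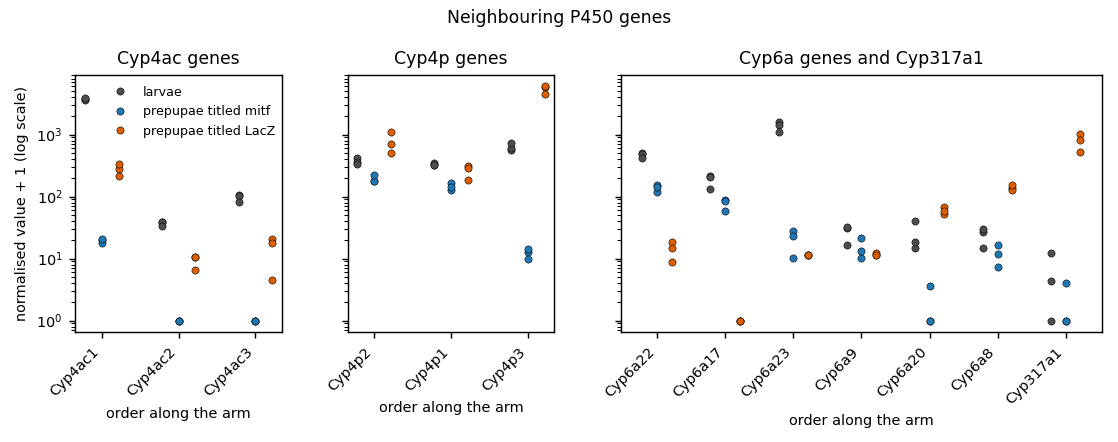
Normalised value plus 1 (log scale, y axis) of P450 genes in 3 arrays of neighbours, in order along the chromosome arm (x axis); points are the 3 libraries of larvae, prepupae titled mitf and prepupae titled LacZ. The Cyp4ac genes keep 1 order of groups, whereas in the Cyp6a array larvae are highest at Cyp6a22, Cyp6a17 and Cyp6a23 and prepupae titled LacZ at Cyp6a20, Cyp6a8 and Cyp317a1.

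Neighbouring genes shared a direction in some arrays and not in others. Of the 68 genes, 37 lay within 10 kb of another of the 68, in 14 arrays, and 31 did not. P450 genes outside the 68 were not counted as neighbours. Within the arrays Cyp4ac1 to Cyp4ac3, Cyp9b1 and Cyp9b2, and Cyp309a1 and Cyp309a2, all genes were called in the same direction in each of the 3 comparisons, with the exceptions under alternative settings given above for Cyp9b2 and Cyp309a2. Cyp4ad1, Cyp4e2 and Cyp4e1 on arm 2R (8439395 to 8449745) were all higher in the prepupae titled LacZ than in those titled mitf. The genes Cyp6g1 and Cyp6g2 were both higher in the prepupae titled mitf than in larvae, but went opposite ways from larvae to the prepupae titled LacZ. The call of Cyp6g2 there (-1.07 ± 0.44, adjusted p = 0.0485) was lost in 12 alternative settings. Neighbours can share reads where their sequences are alike, so the split between close paralogues is uncertain.

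The CYP2 clan had 2 measured genes, and both were highest in the prepupae titled LacZ. Cyp304a1 (FBgn0038095, arm 3R, 12963791 to 12965923, plus strand) stood at 36, 26.2 and 41.2 among larvae, 3023, 2429 and 3716 among the mitf-titled prepupae and 15213, 10799.8 and 12632 among the LacZ-titled prepupae. Its groups did not overlap, with larvae lowest and the prepupae titled LacZ highest. It rose 88.7-fold from larvae to the mitf-titled prepupae (log2 difference 6.43 ± 0.20, adjusted p = 3.95e-09) and 374-fold to those titled LacZ (8.51 ± 0.20, adjusted p = 4.62e-10), and the prepupa groups differed by 2.08 ± 0.20, adjusted p = 7.93e-06. Cyp305a1 (FBgn0036910, arm 3L, 19810403 to 19813339, minus strand) stood at 2.77, 13.7 and 32.7 in the larvae, was listed at 0 in every library titled mitf, and reached 2409.9, 1468 and 2521 among the LacZ-titled prepupae. The order of groups was thus different from that of Cyp304a1, with the prepupae titled mitf below the larvae. The log2 differences were -3.62 ± 0.65, adjusted p = 0.000685 to the prepupae titled mitf, 7.40 ± 0.65, adjusted p = 2.84e-06 to those titled LacZ and 11.02 ± 0.65, adjusted p = 2.03e-07 between the prepupa groups.

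In the mitochondrial clan, CYP12 genes carried most of the value. Of its 9 genes, 4 were higher and 3 lower in the prepupae titled LacZ than in those titled mitf, against 41.1% and 31.6% of all genes. From larvae, 3 rose and 2 fell to the prepupae titled mitf, against 34.8% and 31.7% of all genes. To those titled LacZ, 4 rose and 3 fell, against 46.3% and 32.2%. In both comparisons with the prepupae titled LacZ, the 4 include Cyp12d1-d and Cyp49a1, which passed the value filter only through those libraries. Cyp12c1 (FBgn0036806, arm 3L, 18684259 to 18686319, minus strand) stood at 968, 687 and 551 among larvae, 4155, 4219 and 4195 among the mitf-titled prepupae and 474, 257 and 330.1 among the LacZ-titled prepupae. The prepupae titled mitf were the highest and nearly equal among themselves, and no groups overlapped. The differences were 2.55 ± 0.24, adjusted p = 6.13e-06 from larvae to the prepupae titled mitf, -1.06 ± 0.24, adjusted p = 0.0022 to those titled LacZ (-0.57 with equal library totals) and -3.61 ± 0.24, adjusted p = 4.17e-07 between the prepupa groups.

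The tandem copies Cyp12d1-p and Cyp12d1-d, induced by several xenobiotics and near-identical in sequence, lie on arm 2R between 11117225 and 11125647. Because reads of the copies can be split between them in more than 1 way, their sum is the more certain value. The sum stood at 388, 350.3 and 308 among larvae, 8889, 8079 and 7698 among the mitf-titled prepupae, and 2287, 1616 and 2746 among the LacZ-titled prepupae. The groups did not overlap, and the mean was 23.6-fold higher in the prepupae titled mitf than in larvae and 6.36-fold higher in those titled LacZ. Taken singly, Cyp12d1-p averaged 349 ± 40.1, 8220.3 ± 608 and 981 ± 299 in the 3 groups. Cyp12d1-d was listed at 0 in all larvae, stood at 2.74, 0 and 2.43 among the mitf-titled prepupae, and at 1266, 952 and 1489 among the LacZ-titled ones. Between the prepupa groups, Cyp12d1-p was lower in those titled LacZ (-3.11 ± 0.20, adjusted p = 4.01e-07), whereas Cyp12d1-d was higher there. Cyp12d1-d passed the value filter only through the libraries titled LacZ, the group where it is high. No test of its difference between the prepupa groups is therefore printed. The small rise of Cyp12d1-d from larvae to the prepupae titled mitf (1.23 ± 0.48, adjusted p = 0.0449) was lost in 9 alternative settings.

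The other mitochondrial genes went several ways. Cyp12e1 averaged 473 ± 80 in larvae, 582 ± 33.6 in the prepupae titled mitf and 107 ± 22.4 in those titled LacZ, the lowest. Cyp12a4, whose overexpression gives lufenuron resistance, averaged 270.4 ± 135, 5.43 ± 4.19 and 35.1 ± 15.5 and fell from larvae to both prepupa groups. Cyp12b2 averaged 23.6 ± 6.24, 3.06 ± 2.63 and 194 ± 59.1, with the prepupae titled mitf lowest. Cyp12a5, Cyp49a1 and Cyp301a1, which is needed to form the adult cuticle, had group means of at most 5.26. Of these, Cyp49a1 averaged 0.66, 0.388 and 5.26 in larvae, prepupae titled mitf and prepupae titled LacZ. It passed the value filter only through the libraries titled LacZ, where it is highest, so no test is printed for it.

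The CYP3 genes not yet described were Cyp9f2, Cyp9h1 and the pseudogene Cyp6t2Psi. Cyp9f2 stood at 187, 153 and 162 among larvae, 146, 181 and 161 among the mitf-titled prepupae and 122, 155 and 143 among the LacZ-titled prepupae, with all groups overlapping and no call. Cyp9h1 averaged 28.8, 6.96 and 16.1 and Cyp6t2Psi 0.922, 2.78 and 26.1 in larvae, prepupae titled mitf and prepupae titled LacZ. In all, 62 of the 68 genes were called in at least 1 comparison and 39 in all 3. Of all tested genes, 66.4% to 78.5% were called in each single comparison. The share of all genes called in at least 1 or in all 3 was not computed, so these counts are not read as a trait of P450 genes. The 6 P450 genes called in none were Cyp6a13, Cyp6a14, Cyp9f2, Cyp28d2, Cyp12a5 and Cyp301a1.

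Sorted by their called order, 15 P450 genes (22.1%) were higher in larvae than in both prepupa groups, against 20.2% of all genes. The prepupae titled mitf were above both other groups for 15 (22.1%, against 16.5%), and the prepupae titled LacZ for 20 (29.4%, against 30.7%). Those 20 include Cyp4g15, Cyp4ae1, Cyp28c1, Cyp12d1-d and Cyp49a1, which passed the value filter only through the libraries titled LacZ. At the low end, larvae were below both prepupa groups for 15 genes (22.1%, against 23.6%) and the prepupae titled LacZ were lowest for 12 (17.6%, against 19.4%). The prepupae titled mitf were lowest for 22 (32.4%, against 16.3%), of which 12 were CYP4, 7 CYP3, 1 CYP2 and 2 mitochondrial genes. These are the same fits counted in another way, and no test was made of the difference from all genes.

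Genes listed for electron transfer were lower in both prepupa groups than in larvae for 6 of 6. Of all genes, 31.7% fell to the prepupae titled mitf and 32.2% to those titled LacZ. The 6 include Cyt-b5-r, a cytochrome b5-related gene that is not an established electron supplier of P450 enzymes. Cpr, the P450 reductase, stood at 8589.5, 8867 and 8202 among larvae, 1415, 1439 and 1342 among the mitf-titled prepupae and 1547, 1125 and 1427 among the LacZ-titled prepupae. The prepupa groups overlapped and lay well below the larvae (-2.61 ± 0.12, adjusted p = 3.55e-08 titled mitf, -2.66 ± 0.12, adjusted p = 1.69e-08 titled LacZ). Cyt-b5, which can pass the second electron, averaged 8518 ± 441, 1313 ± 46.3 and 1040.3 ± 334 in larvae, prepupae titled mitf and prepupae titled LacZ. The cytochrome b5-related gene Cyt-b5-r averaged 14222 ± 4428, 2747 ± 703 and 738 ± 219. On the mitochondrial side, the ferredoxin Fdx2 averaged 973 ± 79.6, 150.1 ± 5.56 and 263 ± 37.6. Of 7 measured genes of haem synthesis and breakdown, 6 fell and 1 rose from larvae to the prepupae titled mitf, and 4 fell and 1 rose to those titled LacZ. Alas, the first enzyme of haem synthesis, averaged 1725, 262 and 361 in larvae, prepupae titled mitf and prepupae titled LacZ, and the haem oxygenase Ho, which breaks haem down, rose from 143 ± 8.26 to 2021 ± 196 and 583 ± 165.

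P450 genes of ecdysone metabolism, most of which carry symbols of another form, were not among the 68. shd, which converts ecdysone to its active form, stood at 1079, 907 and 732 among larvae, 12.5, 28 and 24 among the mitf-titled prepupae and 642, 455 and 493 among the LacZ-titled prepupae, and was lowest in the prepupae titled mitf (-5.39 ± 0.28, adjusted p = 1.02e-07 from larvae). Cyp18a1, which inactivates the hormone, averaged 40.4 ± 1.67, 1.14 ± 1.13 and 232 ± 58.8, with the same group lowest. sad, an enzyme of ecdysone synthesis, was listed at 0 in every larval library and reached 300.3, 147 and 553 among the mitf-titled prepupae. In the LacZ-titled prepupae sad averaged 1.56 ± 1.59.

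Genes of conjugation, the step that follows P450 oxidation in detoxification, also changed in both directions, with 78.3% of Ugt and 81.2% of glutathione transferase genes called between the prepupa groups against 72.7% of all genes. Of 23 measured Ugt genes, which add sugars, 13 were higher and 5 lower in the prepupae titled LacZ than in those titled mitf. From larvae, 4 rose and 12 fell to the prepupae titled mitf, and 8 rose and 8 fell to those titled LacZ. Over all genes, 34.8% rose and 31.7% fell to the former group, and 46.3% and 32.2% to the latter. Ugt36D1 rose most to the prepupae titled mitf, from 65.7 ± 4.85 to 12240.5 ± 382, with 500.3 ± 277 in those titled LacZ. Of 32 measured glutathione transferase genes, 11 were higher and 15 lower in the prepupae titled LacZ than in those titled mitf. From larvae, 9 rose and 11 fell to the prepupae titled mitf, and 8 rose and 16 fell to those titled LacZ. GstD7 fell from 8603 ± 905 in larvae to 5.6 ± 0.776 and 19.6 ± 18.1 in the prepupae titled mitf and titled LacZ. Among 10 regulators of detoxification genes, all were called between the prepupa groups, 6 higher and 4 lower in those titled LacZ, against 41.1% and 31.6% of all genes. cnc, the fly Nrf2 factor, averaged 2923, 5261 and 3897 in larvae, prepupae titled mitf and prepupae titled LacZ, and its inhibitor Keap1 179.7, 186 and 1001. The nuclear receptor Hr96, a xenobiotic sensor, averaged 580.5, 192 and 248. The part of these regulators in the P450 differences was not tested.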

How the data were processed

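The deposited values are 1 normalised read signal per gene and library; per the submitters' processing notes the authors used bcl2fastq, Salmon 1.5.2 and DESeq2 with BDGP6. Over the 7791 genes above 0 in all libraries, the median ratio of a library to the geometric mean per gene was 0.9926 in every library. Only 66.9% to 75.8% of low values lay near whole steps (tolerance 0.05, multiples up to 10), so whole reads were not recovered and no count model was used. Depth is therefore known only roughly, and no counting interval is given.

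Symbols, positions and exon lengths came from Ensembl release 115 (BDGP6), which named 10189 of 10242 identifiers. limma 3.58.1 (R 4.3.3), trend included, was fitted to log2(value + 1) of 10139 genes at 1 or more in 3 or more libraries, with 1 coefficient per group and two-sided tests adjusted by Benjamini-Hochberg over all genes tested. The procedure was tested on simulated data. Groups followed the titles. Nothing in the labels says that replicates came from separate crosses, so p-values measure the spread between these libraries, which may be technical. Same-numbered libraries did not deviate together (r from -0.0653 to 0.0888), so numbers were not used as pairs.

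The genes, lists and tests were chosen with earlier results of these data known. Genes with values in every library have a group mean of at least 1000, or are among the 5 largest called rises or falls of a comparison with a higher mean of at least 50; Cyp12d1-p met this rule but is given as a sum with its copy. Other P450 genes that are named, Cyp9f2, Cyp313a2 and Cyp28c1 with single values among them, were chosen after their values were seen, to account for every gene. Alternatives covered the pseudocount (0.1, 5), the value filter (none, 10), library scaling, the trend, the libraries fitted, a replicate block and each replicate left out.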

Additional observations from a re-analysis of the deposited data

How the results depend on the processing

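The 6 counts of P450 genes called higher or lower stayed within 1.5 times the reported count in all 108 alternative values. Leaving out 1 library at a time gave 29 to 32 higher and 19 to 24 lower between the prepupa groups, 19 to 22 and 28 to 30 from larvae to the prepupae titled mitf, and 27 to 34 and 19 to 22 to those titled LacZ. With equal library totals the counts were 33 and 20, 22 and 30, and 35 and 17. That scaling moved the median log2 difference of all genes by 0.41, 0.05 and 0.45 in the same order, and trimmed mean scaling by -0.17, -0.07 and -0.23. A fit with the replicate number as a block gave 32 and 22, 22 and 30, and 33 and 21, and lost 2 called differences of single genes. The numbers did not pair the libraries. One called difference turned its direction, that of Cyp9c1 from larvae to the prepupae titled LacZ (0.12 with equal library totals). Of uncalled differences from larvae to the prepupae titled LacZ that the text gives, that of Cyp6v1 became 0.076 with equal totals, and that of Cyp4e2 became -0.19 with trimmed mean scaling and lay between -0.10 and 0.21 with 1 library left out. The cause was not tested. Fold changes of genes near 0 depend on the pseudocount, and genes with values of a few units rest on few reads.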
